A study of Mus musculus with 9 samples.

Results

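The genes described are 36 genes of glucose uptake, glycolysis and the transcriptional response to low oxygen, read in the mouse embryonic fibroblast line NIH/3T3. They were found in the table of 56691 genes by symbol, 1 row per gene, and all 36 had a row. Where a symbol had more than 1 row, the row with the highest summed count was kept, which concerned Aldoa. The libraries fell into 3 groups of 3: untreated control cells, as far as the labels say, cells exposed to 10 J/cm2 of UVA, and cells that received this exposure together with α-arbutin, a hydroquinone glucoside (called co-treated). All 9 libraries share the cell line and a wild-type genotype. The α-arbutin dose, its order relative to UVA and the harvest time are not stated in the labels. They do not say either that the libraries of a group came from separate cultures, so p-values measure the spread between these libraries only. The study set out to ask about protection from photodamage, with DNA repair and collagen synthesis in view, and these genes lie outside that question.

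Glycolysis splits glucose into pyruvate in a chain of enzyme steps in the cytosol, an early stretch that spends ATP and a later stretch that returns it, and pyruvate then goes to lactate or into mitochondria. Many of its genes are transcribed under hypoxia-inducible factor (HIF), a pair of an oxygen-labile alpha subunit (Hif1a, Epas1) and the constant partner Arnt. In the presence of oxygen the prolyl hydroxylases of the Egln family mark the alpha subunit for destruction by the von Hippel-Lindau ligase. HIF binds DNA at hypoxia response elements, whose core is written ACGTG or GCGTG. Fibroblasts in culture run glycolysis at a high rate, and dermal fibroblasts are among the cells that UVA reaches in skin.

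Library totals ran from 16.3 to 20.86 (in 1e6 counts), and the 36 genes took 1.04 to 1.07% of them in control, 0.940 to 0.967% in UVA and 0.925 to 0.945% in co-treated cells. Fibroblast markers (10 genes, collagens among them) were all above 0 in every library and summed to 12371 to 12736 CPM (counts per 1e6 counts) without UVA, 9021 to 9288 after UVA and 8713 to 9279.9 after co-treatment. These markers thus moved with UVA as well, and their part in the results below was not tested. The summed level of the other marker lists stayed low, at most 4.59 CPM for epithelium, 5.92 for endothelium, 5.85 for immune cells, 2.24 for adipocytes and 3.36 for muscle, and Epcam, Krt5, Cd3e and Myod1 were at 0 in all 9 libraries. Below, levels of 1 gene across libraries are CPM after TMM scaling, which corrects for library composition. Levels of different genes are compared only in FPKM, which also divides by exonic length. A gene was called changed when edgeR's quasi-likelihood test gave an adjusted p below 0.05 over all 14151 genes tested. The ± after a log2 fold change is a standard error derived from the fold change and its F statistic. Intervals are built from that standard error and a t quantile. In bulk RNA, fewer cells that express a gene and less RNA per cell cannot be told apart.

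In control cells part of the enzymes of the main pathway were among the most abundant transcripts of the line. Pgk1 (phosphoglycerate kinase) stood at 582 ± 19.5 FPKM and Pkm (pyruvate kinase) at 565 ± 18.3 (SD, n = 3), above 99.7% of tested genes. These 2 overlapped between libraries. Ldha at 337, Aldoa at 305, Pgam1 at 233 and Tpi1 at 210.1 FPKM followed, each below the one before it in every control library, and Eno1 at 205 overlapped Tpi1. Next came Gpi1 at 72.6 and Hif1a at 60.2 FPKM, and the regulators and hypoxia targets lay lower still, from Ddit4 at 41.2 to Car9 at 0.433. The hexokinase and phosphofructokinase genes ran from 26.2 FPKM for Pfkm to 2.27 for Pfkp, and Eno2 stood at 4.56. The median of all tested genes was 5.70 FPKM. At the bottom, Aldoc, the aldolase of brain, had 0.130 FPKM and Slc16a3, the lactate exporter of glycolytic cells, 0.183. Slc2a3, a neuronal glucose transporter, and Epas1 did not pass the filter on low counts and were not tested. Slc2a3 had 11, 3 and 1 counts over the 3 control, UVA and co-treated libraries, and Epas1 had 1, 3 and 5, so no difference was detectable at this depth. Gapdh stood at only 17.6 FPKM, far below the enzymes before and after it in the pathway. Its transcript has near-identical copies elsewhere in the genome, 4 of them with rows that hold 635 counts beside 10737 of Gapdh, and how reads that match several places were counted is not stated in the labels or the table, so its level is uncertain.

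After UVA, part of the glycolytic and part of the hypoxia-inducible genes were lower, 7 of 15 glycolytic enzymes and 4 of 8 members of the group of other hypoxia-inducible genes among them. The mitophagy receptor gene Bnip3 fell by 58.8%, the kinase gene Pdk1 fell by 53.4%, the peptide hormone gene Adm fell by 49.2% and the phosphofructokinase gene Pfkl fell by 37.5%, all with groups that did not overlap. Of the 34 members tested, 18 fell, against 14.6% of all tested genes that were called lower. The only member called higher was Pfkfb3, against 14.7% of tested genes called higher. The members, and the lists below, were chosen with earlier results of these data known, and differences from these shares were not tested. The median log2 fold change of the 34 was −0.22, beside 0.00 over all tested genes, and 29 of the 34 had a negative value. The 15 members that were not called included the most abundant enzymes, Pgk1 and Pkm. By role, the calls were 1 lower of 1 tested gene of glucose uptake, 4 lower of 9 in the early steps of glycolysis, 3 lower of 6 in the later steps, and 2 lower of 3 in the fate of pyruvate and lactate. Both mitophagy receptors, 2 of 3 tested genes for HIF subunits and prolyl hydroxylases, and 4 of 8 other hypoxia-inducible genes were lower. The map of changes by library shows the values behind these calls.

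**Figure D1:**
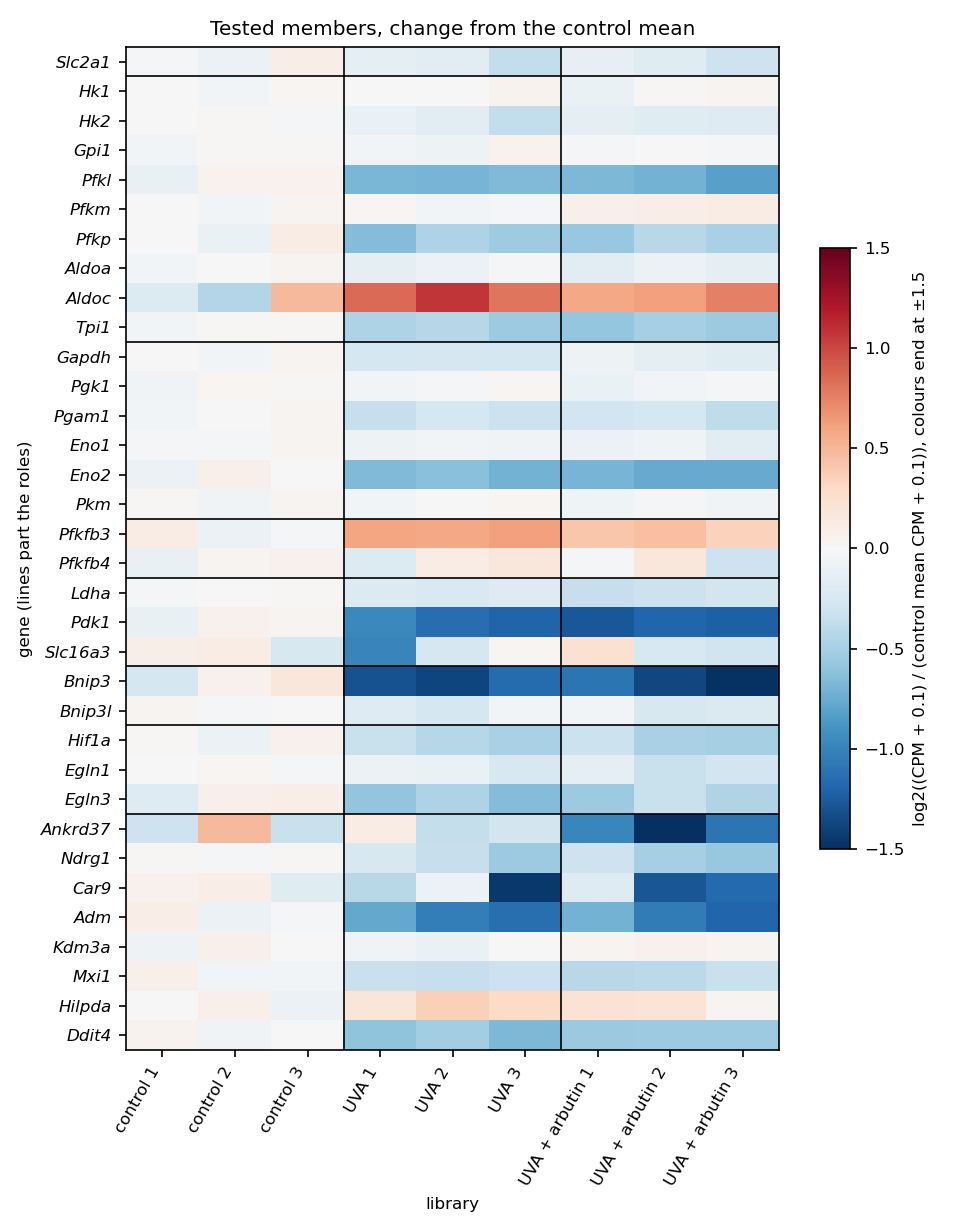
Change of each tested member in each library from the mean of the control libraries, as log2((CPM + 0.1) / (control mean CPM + 0.1)), with libraries in columns and genes in rows, grouped by role. Blue is lower and red higher. Bnip3, Pdk1, Adm and Pfkl are blue in all 6 irradiated libraries and Pfkfb3 is red in all 6, while Pgk1 and Pkm stay near white; the deep colours of Aldoc, Ankrd37 and Car9 rest on few counts.

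Among the regulators, Hif1a itself fell. Hif1a (chr12:73948149-73994304 on mm39, plus strand) had 358, 333 and 369 CPM without UVA, 279.8, 263 and 252 after UVA and 284, 252 and 249.8 after co-treatment. Every irradiated library lay below every control library. The log2 fold change after UVA was −0.42 ± 0.05 (edgeR adjusted p = 1.08e-07), which means that Hif1a fell by 25.2%. Epas1, which encodes the other alpha subunit, had 0, 0 and 0.0479 CPM without UVA, 0.0554, 0.0618 and 0.050 after UVA and 0.305, 0 and 0 after co-treatment. It was near absent from this line in every group.

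Egln3, a prolyl hydroxylase gene that HIF itself induces, fell as well. Its level (chr12:54225767-54250646, minus strand) was 32.5, 39.1 and 39.6 CPM without UVA, 24.5, 26.8 and 23.5 after UVA and 25.4, 29.4 and 27.0 after co-treatment. The groups with and without UVA did not overlap, and the log2 fold change after UVA was −0.58 ± 0.08 (edgeR adjusted p = 3.72e-06). Egln1, the main oxygen sensor among the hydroxylases, stood at 72.9 ± 1.42 CPM in control and 66.2 ± 3.68 in UVA cells (SD, n = 3), and its change of −0.14 ± 0.06 was not called (edgeR adjusted p = 0.0691). The value lies near the threshold: Egln1 was called with library totals without TMM (0.0425), with the 2 groups alone (0.0473), without co-treated library 1 (0.0484) and in limma on log2(TPM + 1) (0.042). Egln3 made up 40.6% ± 2.59 of the summed FPKM of Egln1 and Egln3 in control cells, 33.7% ± 1.05 in UVA cells and 37.6% ± 3.37 in co-treated cells. Control and UVA libraries were apart, and co-treated libraries overlapped both the control and the UVA ones.

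Of 11 further components of the HIF machinery tested, 1 was lower (9.09%) and 3 were higher (27.3%), beside 14.6% lower and 14.7% higher of all tested genes. The difference from those shares was not tested. Arnt, the constant partner, fell from between 89.5 and 91.9 CPM in control libraries to between 57.4 and 64.7 in UVA libraries (log2 fold change −0.56 ± 0.05, edgeR adjusted p = 2.75e-09). The higher genes were Rbx1, a ring protein of the von Hippel-Lindau ligase, at 0.22 ± 0.04, the coactivator gene Ep300 at 0.18 ± 0.05 and the hydroxylase gene Egln2 at 0.19 ± 0.07 (edgeR adjusted p = 0.000346, 0.00991 and 0.0323). The transcripts of both partners, Hif1a and Arnt, were lower, and Vhl, at −0.09 ± 0.08, and Hif1an, at 0.06 ± 0.06, were not called. Egln2 and Hif1an entered the list when a slip in it was corrected, after the files were read. Nothing in these libraries measures HIF protein, which is set mostly after transcription.

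The promoter sequences of the 4 members with the largest falls are shown with that of Pgk1, the member with the highest mean FPKM in control cells, which was not called, because their hypoxia response element cores can be compared directly. Each line gives the last 160 bases before the annotated start, from RefSeq on build GRCm38.p6, 5′ to 3′ on the gene's strand, with every ACGTG or GCGTG in capitals on either strand (read on the other strand these are CACGT and CACGC). Matches can overlap. The stretches lie at chr7:138909507-138909666 (minus strand) for Bnip3, chr2:71873064-71873223 (plus) for Pdk1, chr7:110627497-110627656 (plus) for Adm, chr10:78009808-78009967 (minus) for Pfkl and chrX:106186940-106187099 (plus) for Pgk1.
Bnip3: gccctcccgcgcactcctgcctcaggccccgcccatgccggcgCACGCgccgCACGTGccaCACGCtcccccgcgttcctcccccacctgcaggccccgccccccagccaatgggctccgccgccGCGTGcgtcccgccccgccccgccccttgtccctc
Pdk1: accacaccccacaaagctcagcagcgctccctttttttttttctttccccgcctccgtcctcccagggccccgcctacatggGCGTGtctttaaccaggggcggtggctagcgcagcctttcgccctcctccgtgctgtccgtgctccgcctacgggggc
Adm: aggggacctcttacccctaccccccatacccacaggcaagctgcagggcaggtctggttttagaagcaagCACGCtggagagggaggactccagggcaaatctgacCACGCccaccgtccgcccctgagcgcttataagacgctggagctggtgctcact
Pfkl: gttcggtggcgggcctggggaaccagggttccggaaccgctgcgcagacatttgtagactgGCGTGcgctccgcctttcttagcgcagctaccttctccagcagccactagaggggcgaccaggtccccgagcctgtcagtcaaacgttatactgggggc
Pgk1: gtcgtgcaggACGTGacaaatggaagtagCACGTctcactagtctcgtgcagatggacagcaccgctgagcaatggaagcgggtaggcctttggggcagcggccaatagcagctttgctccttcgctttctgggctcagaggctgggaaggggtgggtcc

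Bnip3 has 5 matches in this stretch, Adm and Pgk1 have 2 each, and Pdk1 and Pfkl have 1 each. The Bnip3 promoter holds the palindrome CACGTG, where the motif reads on both strands. Over the set, at least 1 window of 250 bases before a start was found for 32 of 36 members. Of the 32, 29 (90.6%) had at least 1 match, against 41.5% of 27025 genes in the same RefSeq table. A gene counted if any of its windows matched, and members had 50 windows for 32 genes, against 32851 windows for all 27025. By window, 76.0% of member windows and 38.6% of all windows had a match. For 37 of the 50 member windows, the bases after the start lay near the start of a transcript of the gene. Among members lower after UVA, 14 of 16 (87.5%) had a match, and among those not called, 14 of 15 (93.3%). Tpi1 and Eno2 were the lower members without a match, and Gpi1 the one not called. Eno2, whose promoter is not shown, fell nearly as much as Pfkl (−0.67 against −0.68 on the log2 scale). Counted separately, GCGTG was found in 10 of 16 and 9 of 15, and ACGTG in 9 of 16 and 9 of 15. The difference between these 2 groups of members was not tested. The member windows were also richer in G and C (median 60.4%) than all windows (52.4%), and the part of that difference in the motif counts was not tested. Many members were listed as known HIF targets to begin with. A match is a string of letters, not a measured binding site.

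Of the mitophagy receptor genes, Bnip3 gave the steepest fall of the set after UVA, and the fall of Bnip3l was small. Bnip3, which tethers mitochondria to the autophagy machinery under low oxygen (chr7:138492565-138511248 on mm39, minus strand), had 52.8, 66.1 and 71.3 CPM without UVA, 25.6, 24.4 and 28.4 after UVA and 29.5, 24.5 and 22.7 after co-treatment. Every irradiated library lay far below the lowest control one. Its log2 fold change after UVA was −1.28 ± 0.09 (edgeR adjusted p = 1.07e-11). Bnip3l, its close relative, stood at 77.3 ± 1.87 CPM in control and 69.0 ± 5.39 in UVA cells (SD, n = 3), and its log2 fold change of −0.16 ± 0.06 passed narrowly (edgeR adjusted p = 0.0429). The Bnip3l call was lost in DESeq2, in limma on FPKM and without control library 1, 2 or 3 or UVA library 1 or 2 (edgeR adjusted p from 0.0636 to 0.197 in these 5). Bnip3 made up 58.0% ± 4.33 of the summed FPKM of the pair in control cells, 39.2% ± 0.0716 in UVA cells and 38.6% ± 1.77 in co-treated cells. By FPKM, Bnip3 had the larger share in every control library and Bnip3l in every irradiated one. This order rests on the exonic sizes used for FPKM, 2265 bases for Bnip3 and 3859 for Bnip3l. In CPM, without that division, Bnip3l was above Bnip3 in every library.

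Adm, which encodes the vasodilator adrenomedullin (chr7:110226868-110229027, plus strand), had 25.8, 22.5 and 23.7 CPM without UVA. Its level was 14.0, 11.7 and 10.9 CPM after UVA and 14.6, 11.5 and 10.4 after co-treatment. No irradiated library reached the lowest control one, and the log2 fold change after UVA was −0.98 ± 0.11 (edgeR adjusted p = 7.25e-08). Ddit4, an inhibitor of mTORC1 signalling that hypoxia and other stresses induce (chr10:59785491-59787656, minus strand), had 74.4, 69.3 and 72.3 CPM without UVA, 47.2, 50.2 and 45.0 after UVA and 49.0, 49.3 and 49.2 after co-treatment. It was lower in every irradiated library, by −0.60 ± 0.06 on the log2 scale after UVA (edgeR adjusted p = 2.47e-09). The other 2 lower targets were Ndrg1, a stress-response gene that fell by 22.8%, and Mxi1, an antagonist of Myc that fell by 20.6% (edgeR adjusted p = 6.79e-05 and 8.27e-05).

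The remaining hypoxia targets did not pass the test after UVA. Kdm3a, a histone demethylase gene, had a log2 fold change of −0.05 ± 0.06. Hilpda, a lipid droplet protein gene, went the other way, from 7.28 ± 0.42 to 8.88 ± 0.58 CPM (SD, n = 3), with all UVA libraries above all control libraries, at 0.29 ± 0.13 (edgeR adjusted p = 0.0893). Car9, which encodes a carbonic anhydrase of the cell surface that is among the most hypoxia-dependent transcripts known, had 55 counts over the control and 34 over the UVA libraries, and its log2 fold change of −0.63 ± 0.44 leaves an interval from −1.53 to 0.27. Ankrd37 (chr8:46449939-46458744, minus strand) had 1.22, 2.19 and 1.20 CPM without UVA, 1.66, 1.17 and 1.25 after UVA and 0.732, 0.406 and 0.663 after co-treatment. Control and UVA libraries overlapped and the co-treated ones lay below both. Its levels rest on 85, 74 and 31 counts per group.

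Outside the 36, a list of further hypoxia-inducible genes gave 17 lower and 2 higher of 29 tested after UVA, against 14.6% and 14.7% of all tested genes, with a median of −0.24. This list too was chosen with earlier results of these data known. Vegfa, the angiogenic factor, had 171, 157 and 162 CPM without UVA, 153, 142 and 126 after UVA and 161, 146 and 131 after co-treatment. UVA and control libraries did not overlap, the co-treated ones spanned the gap, and the fall after UVA was small, at −0.22 ± 0.06 (edgeR adjusted p = 0.00709). The 4 genes of the list with the smallest p were the collagen crosslinking enzyme gene Lox at −1.20, the collagen prolyl hydroxylase gene P4ha1 at −0.71, Angptl4, an inhibitor of lipoprotein lipase, at +1.02 and the mitochondrial gene Fam162a at −0.54 on the log2 scale. Angptl4 rose, to between 53.5 and 70.3 CPM in UVA libraries from between 29.2 and 31.8 in control ones (edgeR adjusted p = 6.12e-11). The hypoxia-inducible genes were therefore not lowered as a block.

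**Figure D2:**
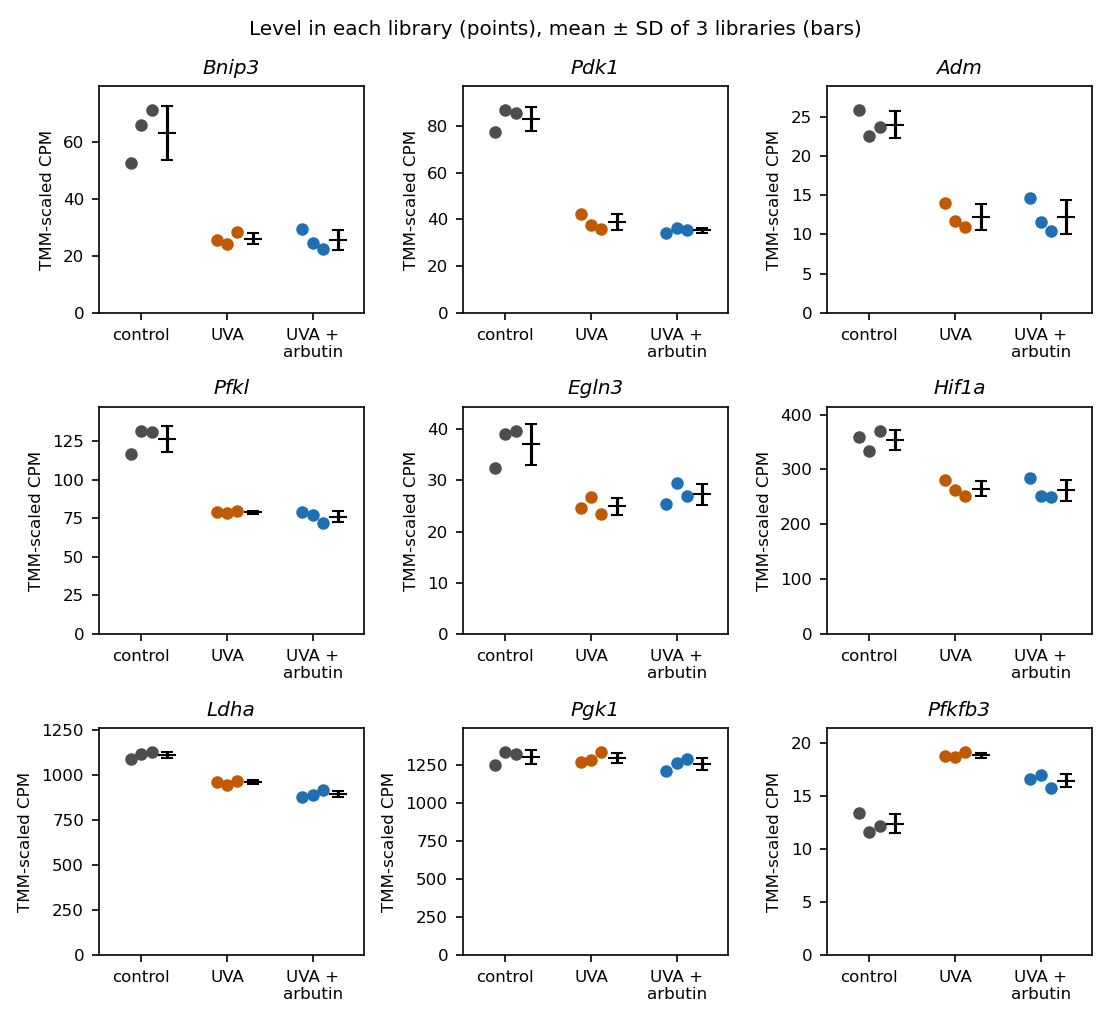
Levels of 9 members in TMM-scaled CPM on linear axes from 0, with 1 point per library and bars for the mean ± SD of 3 libraries. In Bnip3, Pdk1, Adm, Pfkl, Egln3, Hif1a and Ldha the UVA libraries lie below all control libraries, Pgk1 overlaps between control and UVA, and in Pfkfb3 the UVA libraries lie above.

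Glucose uptake and the first step of glycolysis changed little. Slc2a1, the glucose transporter of most dividing cells, had 118, 112 and 128 CPM without UVA, 108, 107 and 92.4 after UVA and 109.6, 106 and 96.1 after co-treatment. Irradiated libraries all lay below the control ones, but by a narrow margin, and the log2 fold change of −0.23 ± 0.06 (edgeR adjusted p = 0.00415) was no longer called without control library 3 (edgeR adjusted p = 0.0612). Hexokinase traps glucose in the cell. Its gene Hk2 had 91.6, 92.5 and 89.5 CPM without UVA, 85.4, 81.4 and 70.4 after UVA and 83.3, 80.6 and 79.8 after co-treatment. Here too the groups were apart, at −0.21 ± 0.06 (edgeR adjusted p = 0.00649), and leaving out UVA library 3, the lowest, ended the call (edgeR adjusted p = 0.0882). Hk1, the constitutive form, was not called, at 0.02 ± 0.04. The share of Hk2 in the summed FPKM of the 2 forms was 41.2% ± 0.92 in control cells, 37.4% ± 2.89 after UVA and 38.6% ± 1.73 after co-treatment.

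Phosphofructokinase, the committed step, has 3 isozyme genes, and 2 of them fell. Pfkl, the liver form (chr10:77822781-77845917 on mm39, minus strand), had 117, 131 and 131 CPM without UVA, 78.8, 78.1 and 79.8 after UVA and 79.0, 77.1 and 72.0 after co-treatment. The 6 irradiated libraries sat close together and far below the control ones, and the log2 fold change after UVA was −0.68 ± 0.05 (edgeR adjusted p = 3.78e-11). Pfkp, the platelet form (chr13:6629804-6698813, minus strand), had 30.1, 28.3 and 32.7 CPM without UVA, 19.4, 22.0 and 21.0 after UVA and 20.4, 22.7 and 21.7 after co-treatment. It too was lower in each irradiated library, by −0.55 ± 0.08 on the log2 scale (edgeR adjusted p = 6.08e-06). Pfkm, the muscle form, was not called, at 87.3 ± 2.59 CPM in control and 86.6 ± 2.25 in UVA cells (SD, n = 3; log2 fold change −0.01 ± 0.05, interval −0.11 to 0.09). As shares of the summed FPKM of the 3 forms, Pfkm went from 55.2% ± 1.45 to 66.0% ± 0.76 and Pfkl from 40.0% ± 1.67 to 30.1% ± 0.51, with no overlap between control and UVA libraries. The height of these shares depends on the exonic sizes used for FPKM, 3340 bases for Pfkm and 6675 for Pfkl. In CPM, Pfkl was above Pfkm in every control library. With 3 libraries against 3, an exact permutation test of such a share cannot go below p = 0.1.

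The phosphofructokinase rows come with a limit of annotation. Pfkp overlaps Pitrm1 on the opposite strand over 748 bases, and Pitrm1, with 33792 counts to 3950 of Pfkp, fell by 0.34 on the log2 scale. Pfkm overlaps Senp1 on the opposite strand, which rose by 0.25. Whether reads were counted by strand is not stated in the labels or the table, and the part of these neighbours in the 2 rows was not tested.

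The activator of this step moved against the rest. Pfkfb3 encodes the enzyme that makes the sugar bisphosphate which stimulates phosphofructokinase (chr2:11476244-11558888, minus strand). It had 13.4, 11.6 and 12.2 CPM without UVA, 18.8, 18.7 and 19.1 after UVA and 16.6, 17.0 and 15.8 after co-treatment. UVA libraries were highest, control libraries lowest and co-treated libraries between, with no overlap among the 3 groups. The log2 fold change after UVA was 0.61 ± 0.09, a rise of 52.2% (edgeR adjusted p = 1.09e-05). Pfkfb4, a relative with both kinase and phosphatase activity, was not called, at 0.03 ± 0.13.

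In the rest of the pathway Tpi1, Gapdh, Pgam1 and Eno2 fell, and Gpi1, Aldoa, Aldoc, Pgk1, Eno1 and Pkm were not called. Tpi1, which interconverts the 2 triose phosphates (chr6:124787549-124791259, minus strand), had 562, 581 and 585 CPM without UVA, 419, 429 and 396 after UVA and 384, 406 and 396 after co-treatment. Control and irradiated libraries were far apart, at −0.47 ± 0.04 on the log2 scale after UVA (edgeR adjusted p = 1.31e-10). Pgam1, phosphoglycerate mutase, fell by 19.4% (edgeR adjusted p = 5.24e-07). Gapdh had 72.2, 70.1 and 74.7 CPM without UVA, 60.2, 60.9 and 60.3 after UVA and 68.6, 65.5 and 63.6 after co-treatment. The order was control above co-treated above UVA without overlap, and the log2 fold change after UVA was −0.26 ± 0.05 (edgeR adjusted p = 0.000401). Because of the copies named above, the Gapdh row is read with caution.

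Enolase and aldolase each have a rare second form. Eno2, the neuronal enolase (chr6:124737016-124746636, minus strand), had 20.0, 22.5 and 21.5 CPM without UVA, 13.5, 13.8 and 13.1 after UVA and 13.2, 12.6 and 12.6 after co-treatment. All irradiated libraries were lower, with a log2 fold change after UVA of −0.67 ± 0.09 (edgeR adjusted p = 1.51e-06). The bulk of enolase did not follow: Eno2 was 2.17% of the summed enolase FPKM in control and 1.43% in UVA cells, and Eno1 was not called, at −0.06 ± 0.04. A near copy of Eno1, Eno1b, has a row with 40304 counts beside 171977 of Eno1, and that row was not called either (−0.06 ± 0.05). Aldoa, at −0.08 ± 0.04, and the rare Aldoc, at 1.02 ± 0.44 on 24 counts in control and 47 in UVA libraries, were not called (edgeR adjusted p = 0.107 and 0.0824). Gpi1, at −0.02, Pgk1, at −0.01, and Pkm, at −0.01 on the log2 scale, lay near 0 with intervals within 0.10 of it. Pkm shares its strand over 3887 bases with Gm49759, a row with 20694 counts.

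Summed over the 15 glycolytic enzymes, the level was 2281 ± 43.1 FPKM without UVA, 2108 ± 43.4 after UVA and 2067 ± 35.6 after co-treatment (SD, n = 3). Of these 15 genes, 7 were lower and 0 higher after UVA by edgeR, against 14.6% and 14.7% of all tested genes, with a median log2 fold change of −0.08. At an unadjusted p below 0.05 by edgeR there were 9 of 15, beside 5504 of 14151 tested genes (38.9%). Among 11 other tested isozymes and branch enzymes, 0 were lower and 1 was higher by edgeR, against the same shares of calls. Of these 11, 2 had an unadjusted p below 0.05 by edgeR, beside the same 38.9%. The higher gene was Pgam2, the muscle mutase, at 0.96 ± 0.28 on levels between 0.814 and 2.47 CPM (edgeR adjusted p = 0.0107).

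The genes that decide between lactate and mitochondria gave both a small and a large fall. Ldha, which encodes the lactate dehydrogenase subunit that favours lactate, had 1092, 1117 and 1127 CPM without UVA, 965, 947 and 969 after UVA and 878, 892 and 916 after co-treatment. The 3 groups did not overlap, and the change after UVA was −0.21 ± 0.03 on the log2 scale (edgeR adjusted p = 1.89e-05), 13.6% of an abundant transcript. Pdk1, a kinase that switches pyruvate dehydrogenase off and so keeps pyruvate out of mitochondria (chr2:71703568-71734202, plus strand), had 77.2, 86.6 and 85.5 CPM without UVA, 42.5, 37.7 and 36.02 after UVA and 34.3, 36.4 and 35.5 after co-treatment. Its irradiated libraries stayed far below the control ones, with a log2 fold change after UVA of −1.10 ± 0.06, with the smallest adjusted p of the members tested (edgeR adjusted p = 1.2e-13). Slc16a3, at −0.36 ± 0.40, was too rare to read.

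Other genes around pyruvate dehydrogenase were mostly not called. Of 16 tested, 2 were lower and 3 higher after UVA, near the shares of all tested genes (14.6% and 14.7%). Pcx, pyruvate carboxylase, which feeds pyruvate into the citric acid cycle, fell from between 27.7 and 34.5 CPM to between 12.4 and 15.2, a log2 fold change of −1.18 ± 0.10 (edgeR adjusted p = 5.5e-10). Its symbol was matched to the table's spelling after the values could be seen. The higher genes were Pdp2, a phosphatase that switches the dehydrogenase on, at 0.25 ± 0.07, the dehydrogenase subunit gene Pdhb at 0.16 ± 0.05 and the pyruvate carrier gene Mpc2 at 0.23 ± 0.07, and the second lower gene was Ldhb at −0.19 ± 0.07 (edgeR adjusted p = 0.00408, 0.0103, 0.0198 and 0.0289). The other kinases Pdk2, Pdk3 and Pdk4 were not called, at −0.08 ± 0.20, −0.15 ± 0.06 and 0.22 ± 0.15.

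**Figure D3:**
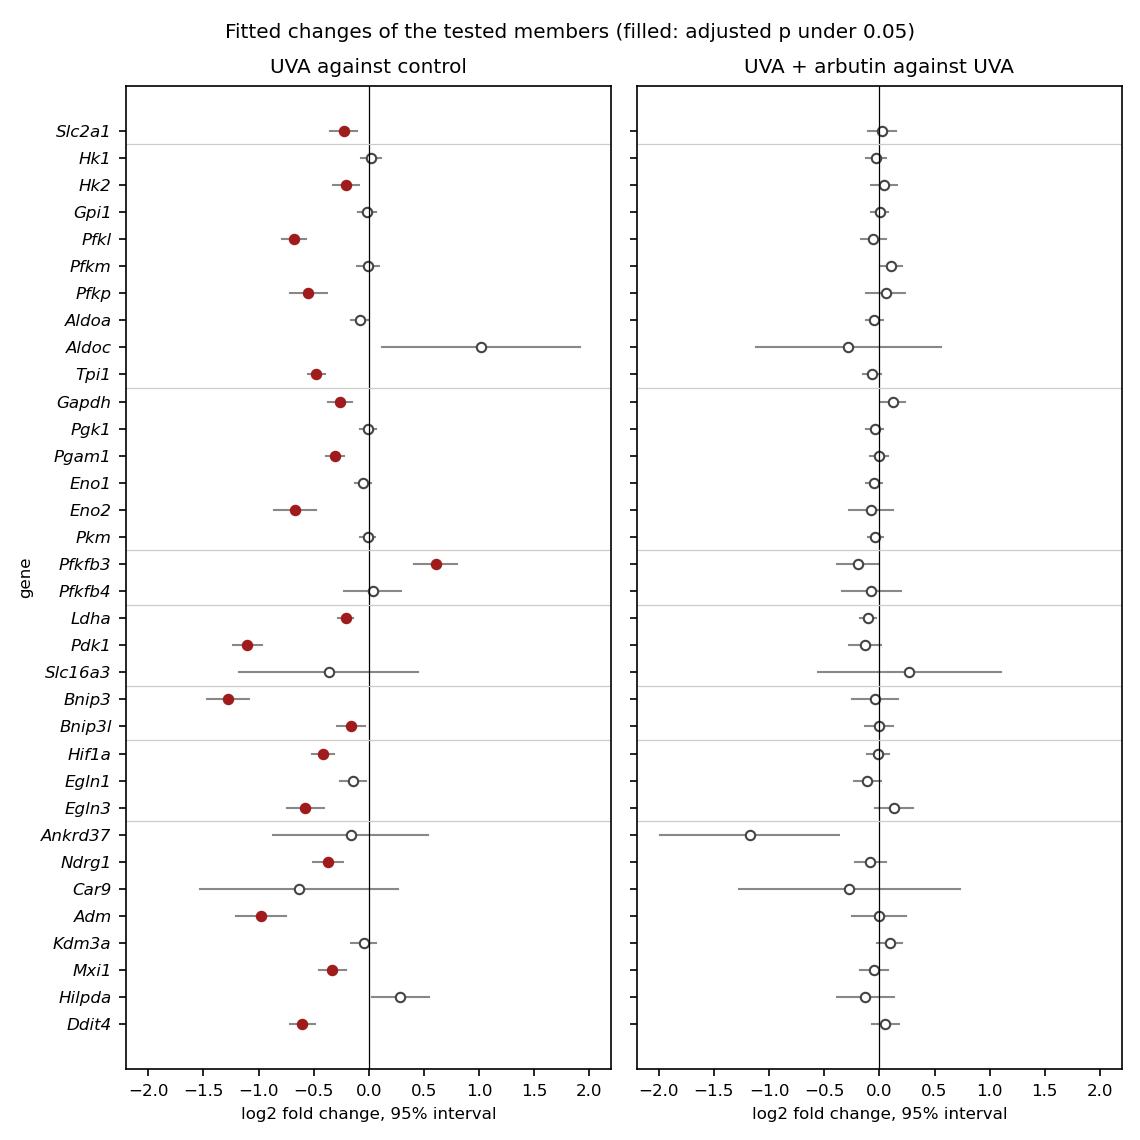
Fitted log2 fold changes of the 34 tested members with 95% intervals (horizontal bars), for UVA against control (left) and co-treated against UVA (right), genes in rows grouped by role, filled where the edgeR adjusted p is below 0.05. On the left 18 genes are filled to the left of 0 and Pfkfb3 to the right; on the right no gene is filled.

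No member was called different between co-treated and UVA cells. Of the 34 members, 0 were lower and 0 were higher in co-treated than in UVA cells by edgeR, against 0.00707% of all tested genes called lower and 0.0283% called higher, which are 1 and 4 genes. At an unadjusted p below 0.05 there were 5 of 34 members, beside 957 of 14151 tested genes (6.76%), and the smallest adjusted p of a member was 0.626. DESeq2 and limma on log2(FPKM + 1) also called 0, with 4 members each at an unadjusted p below 0.05. The median log2 fold change was −0.04, beside 0.00 over all tested genes. The 67 tested genes of the other pathway lists gave 0 calls as well, with 5 at an unadjusted p below 0.05.

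The intervals say how large a difference could have been missed. For Bnip3 the difference of co-treated from UVA cells was −0.04 (interval −0.25 to 0.17), for Pdk1 −0.13 (−0.27 to 0.01), for Adm 0.00 (−0.25 to 0.24), for Hif1a −0.02 (−0.12 to 0.09) and for Pfkl −0.05 (−0.17 to 0.06), all on the log2 scale. The differences of UVA from control cells were −1.28, −1.10, −0.98, −0.42 and −0.68 for the same 5 genes, in a comparison that shares the UVA libraries. The 5 members at an unadjusted p below 0.05 were Ldha at −0.10 ± 0.03, Ankrd37 at −1.18 ± 0.40, Gapdh at 0.12 ± 0.05, Pfkm at 0.11 ± 0.05 and Pfkfb3 at −0.20 ± 0.09. None of the 5 passed the adjustment (edgeR adjusted p from 0.626 to 0.718).

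Co-treated cells were set against control cells as well. Of the 34 members, 21 were lower and 1 higher, against 12.9% and 13.0% of all tested genes, with a median of −0.23. The log2 fold changes were −1.32 ± 0.09 for Bnip3, −1.23 ± 0.07 for Pdk1, −0.98 ± 0.11 for Adm, −0.73 ± 0.05 for Pfkl, −0.54 ± 0.04 for Tpi1 and −0.43 ± 0.05 for Hif1a, and Pfkfb3 was at 0.41 ± 0.10 (edgeR adjusted p from 1.9e-14 for Pdk1 to 0.0018 for Pfkfb3). Aldoa at −0.13 ± 0.04, Eno1 at −0.10 ± 0.04, Egln1 at −0.25 ± 0.06 and Ankrd37 at −1.34 ± 0.39 were called here (edgeR adjusted p = 0.0113, 0.0318, 0.00181 and 0.0108). After UVA without α-arbutin the same 4 were at −0.08, −0.06, −0.14 and −0.16, none called. Aldoa was no longer called without control library 3 (edgeR adjusted p = 0.0971), nor Eno1 without control library 2 or 3 or co-treated library 3 (0.0576, 0.181 and 0.15). Gapdh, at −0.14 ± 0.05, was not (edgeR adjusted p = 0.0576). The Ankrd37 call was lost without control library 2 (edgeR adjusted p = 0.115) and without co-treated library 2 (0.0637), with adjusted p-values over the alternatives from 0.00644 to 0.115. Ankrd37 also overlaps Lrp2bp and Ufsp2 on the opposite strand, and Ufsp2 has 6214 counts to its 190.

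**Figure D4:**
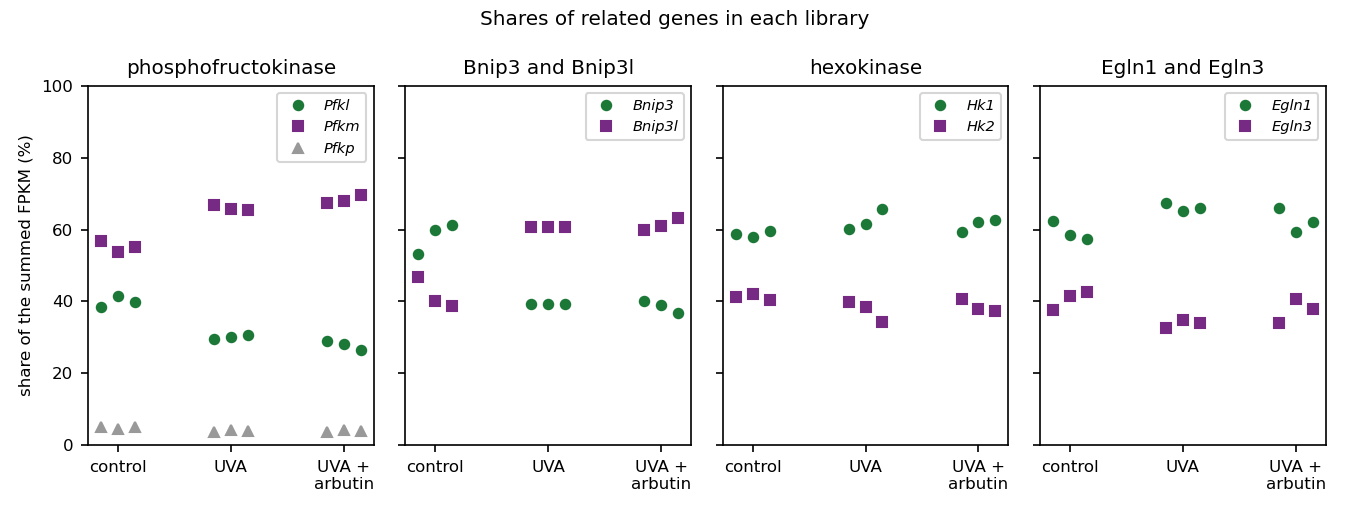
Share of each gene in the summed FPKM of its family, in percent, 1 point per library, for phosphofructokinase, the Bnip3 pair, hexokinase and the Egln1 and Egln3 pair. In the irradiated libraries Pfkm takes 65.5 to 69.5% of phosphofructokinase, against 53.9 to 56.8% in control libraries, and Bnip3 takes less than Bnip3l. The height of each share depends on the exonic sizes used for FPKM.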

How the data were processed

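Per the file headers, the authors deposited 1 table with raw counts and FPKM values of 56691 Ensembl genes in 9 libraries. The deposited FPKM equals count over exonic size and library total in 510219 of 510219 values (tolerance 0.01). Tools named in the submitters' processing notes are HTSeq 0.6.1, HISAT2 2.2.1, cutadapt 1.9.1 and bcl2fastq 2.20.0.422, with build mm39. No source used here states the annotation release, or how strand and reads with several matches were handled. Groups came from titles and treatment labels. The UVA samples are titled MOCK, and columns marked NC were read as control because the other prefixes match the other titles.

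The counts were tested with edgeR 4.0.16 in R 4.3.3 (filterByExpr, TMM, quasi-likelihood F-test, two-sided, group alone, all 9 libraries), with Benjamini-Hochberg adjustment over 14151 genes in each of 3 comparisons. The script was checked on simulated counts. Alternatives were RLE and no scaling, other filters, DESeq2 1.42.0, limma 3.58.1 on log2 values with pseudocounts of 1 and 0.1, a replicate block, the 2 groups alone and leaving out each library. Members and lists were chosen with earlier results of these data known. After the files were read, Pc was changed to the table's spelling, Pcx. A slip in the planned list, Egln2n, was then also replaced by Egln2 and Hif1an. Values per library are given for members called with a log2 fold change of at least 0.5 in any comparison and for Slc2a1, Hk2, Gapdh, Ldha, Pdk1, Hif1a, Epas1 and Vegfa. Of other lists, the 4 called genes with the smallest p after UVA are named, and Ldhb, Vhl, Hif1an, Pdk2, Pdk3 and Pdk4 were added after their values were seen. Promoter windows came from RefSeq (GRCm38.p6), matched by symbol. Coordinates of genes are those of the table, on mm39.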

Additional observations from a re-analysis of the deposited data

How the results depend on the processing

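After UVA the number of members called lower was 16 to 19 when 1 library was left out and 17 to 21 in the other alternatives. The number called higher was 1 in each leave-one-out fit and rose to 2 with limma on log2(FPKM + 1), 3 with limma on log2(FPKM + 0.1) and 3 with limma on log2(TPM + 1), where Hilpda or Aldoc were added. Of the 19 members called, 16 kept their call in all 19 alternatives, and Bnip3l, Hk2 and Slc2a1 lost it in some. In co-treated against control cells the lower members numbered 16 to 22 when 1 library was left out and 19 to 22 otherwise, and the higher 1 throughout. In co-treated against UVA cells it was 0 in each alternative. No called member changed direction. After UVA, Aldoa was also called without UVA library 3 (edgeR adjusted p = 0.0382). In co-treated against control cells Bnip3l and Hk2 lost their calls without any 1 control library or co-treated library 2 or 3 (edgeR adjusted p up to 0.195 and 0.0954), Slc2a1 lost it without control library 3 or co-treated library 3 (0.118 and 0.0921), and Gapdh gained it without co-treated library 1 (0.0377), with library totals without TMM (0.0436) and with the 2 groups alone (0.0466). Limma on log2(FPKM + 1), log2(FPKM + 0.1) and log2(TPM + 1) also ended the calls of Bnip3l and Hk2 there and gave that of Gapdh, the first and second of these ended that of Slc2a1, and DESeq2 ended that of Bnip3l. Over all genes, limma on log2(TPM + 1) gave 1182 higher and 2287 lower calls after UVA (65.9% lower), against 2078 and 2064 (49.8% lower) with edgeR.

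With the replicate block, 19 members were lower, Egln1 among them (edgeR adjusted p = 0.0469), and 1 higher after UVA, and 0 differed between co-treated and UVA cells, where calls over all genes went from 4 higher and 1 lower to 16 and 3. Without UVA library 3 they were 14 and 8. Correlation coefficients of the deviations from the group means were computed between libraries of different groups, and all were near 0. For same-numbered libraries the correlations ran from −0.01 to 0.08, with 0 of 9 over 0.1. For the 18 other pairs they ran from −0.07 to 0.03. Whether the numbers pair the samples was not tested. Depth limits the reading of Slc2a3, Epas1, Aldoc, Slc16a3, Car9 and Ankrd37.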
